A study of Mus musculus with 8 samples.

Results

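Alpha-fetoprotein (Afp), Dlk1 and the genes that belong with them as oncofetal or imprinted genes were followed in mouse hematopoietic cells with and without PICALM, a clathrin adaptor protein. The 10 genes were Afp, Dlk1, Igf2, H19, Igf2r, Grb10, Cdkn1c, Peg3, Igf2bp1 and Igf2bp3. Every probe set whose only gene symbol was one of these was taken, which gave 23 probe sets for 9 genes, out of 22626 probe sets and 12393 genes with a probe set of their own. H19 had none, because its only probe set carries a second symbol, and no value is given for it. The genes were selected on differences already known from these arrays, so their rescued and knockout values are given below as a description, without a test.

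The cells were 4 lines that the labels number PICALM6A, PICALM6B, PICALM6D and PICALM84 (shortened to 6A, 6B, 6D and 84). All were made from fetal liver of Picalm-/- mice (allele fit1-5R, strain B6(Cg)-TyrC-2J/J) at embryonic day 14, immortalized with MLL-ENL, a leukemia fusion gene that holds blood progenitors in culture, and kept in stem cell factor (50 ng/ml) and interleukin-3 (5 ng/ml). PICALM-rescued cells carried human PICALM cDNA in the retroviral vector MSCVneo, and Picalm-knockout cells carried the empty vector. Each line was measured once in each state, which gave 4 rescued and 4 knockout arrays. Both states therefore lack mouse Picalm and carry MLL-ENL and the vector. PICALM in the rescued cells was driven by the retrovirus and may exceed its normal level, and no wild-type cells were measured. The sources used here do not say which embryo or litter each line came from.

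Oncofetal genes are active in the embryo, silent in most adult tissue and active again in some tumors. Afp is the classic case, a serum protein of yolk sac and fetal liver that returns in liver cancer. Imprinted genes are expressed mainly from the maternal or the paternal copy, a choice kept by DNA methylation at control regions, and many of them set fetal growth through the insulin-like growth factor (IGF) pathway. In fetal liver, where blood forms before it moves to the bone marrow, Afp and Dlk1 mark hepatoblasts, the precursors of hepatocytes, which surround the blood progenitors.

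Afp and Dlk1 were the only genes of the group whose brightest probe set was lower in the rescued array of every line. A sequence upstream of an annotated transcript start of each is therefore shown. In RefSeq annotation of build GRCm38.p6, Afp lies at chr5:90490714-90508907 and Dlk1 at chr12:109452485-109463336, both on the plus strand. Igf2 (chr7:142650768-142666816), H19 (chr7:142575530-142578146) and Cdkn1c (chr7:143458339-143461059) lie close together on chromosome 7. The 250 bases before the Afp start, chr5:90490464-90490713, are printed first. Capitals mark an HNF1 motif, part of the site read by that hepatocyte factor and spelled GTTAAT or, in its other form, GTTAAC. They also mark the TATA motif, spelled TATAAA. The 250 bases before the Dlk1 transcript that starts at chr12 position 109452823, chr12:109452573-109452822, follow, with CG dinucleotides, the targets of DNA methylation, in capitals. That start lies inside the annotated span of Dlk1, so the window is upstream of that transcript and not of the whole gene.
Afp: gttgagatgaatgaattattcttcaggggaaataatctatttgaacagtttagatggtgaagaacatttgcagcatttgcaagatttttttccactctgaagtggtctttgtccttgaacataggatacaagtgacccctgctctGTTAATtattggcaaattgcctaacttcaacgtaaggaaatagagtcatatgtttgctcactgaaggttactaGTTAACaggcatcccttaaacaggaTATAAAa
Dlk1: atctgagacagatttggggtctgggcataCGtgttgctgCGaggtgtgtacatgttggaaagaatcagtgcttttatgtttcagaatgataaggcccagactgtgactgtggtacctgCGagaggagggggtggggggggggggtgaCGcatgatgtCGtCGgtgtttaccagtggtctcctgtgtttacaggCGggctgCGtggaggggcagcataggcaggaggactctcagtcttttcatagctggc
The Afp window held the first HNF1 form from 105 to 100 bases before the start, the other form from 32 to 27 bases before it, and the TATA motif from 7 to 2 bases before it. These motifs were chosen after the Afp window had been seen. On either strand, an HNF1 motif of either form was in 8.75% of 32817 upstream windows of the same length, the TATA motif in 12.4% and both in 1.69%. The Dlk1 window held none of them. It held 8 CG, against 1 in the Afp window, where the median over all windows was 6 and 18.8% of windows had 1 or none. Of the 10 genes, 7 had a window in the table, with 11 windows in all, and none of the other 5 genes held an HNF1 or TATA motif. A match describes the letters and is no evidence that a factor binds there.

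Signals were RMA values on the log2 scale, as the authors deposited them, and array medians ran from 7.34 to 7.36. Differences are rescued minus knockout within a line, so negative values are lower in rescued cells. Probe sets differ in sensitivity, so levels are compared between arrays and not between probe sets. Of the 23 probe sets, 16 were in the dimmest 40% of the array. Picalm itself had no probe set in the probe table, so the labels were not checked against it. By line, the rescued and knockout arrays deviated together from their group means (r = 0.62 to 0.81 over probe sets), and line 84 stood apart from the other 3 lines in many genes. Without line 84 the probe sets that differed between lines numbered 58, and with it 2440.

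Afp was lower in PICALM-rescued cells of all 4 lines. Its brightest probe set, 1416645_a_at, was at 7.53, 7.13, 6.03 and 7.24 in rescued lines 6A, 6B, 6D and 84, and at 8.56, 8.46, 7.97 and 7.97 in the knockout cells. Every rescued array lay below every knockout array, and rescued line 6D was the lowest. The means were 6.98 ± 0.65 in rescued and 8.24 ± 0.31 in knockout cells (SD, n = 4 each), a difference of -1.25 ± 0.51 (SD over lines), or 2.38-fold lower. In these bulk samples, fewer cells with Afp RNA and less Afp RNA per cell cannot be told apart.

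A second Afp probe set, 1416646_at, was at 7.10, 6.80, 6.09 and 6.48 in rescued and 7.57, 7.69, 7.16 and 7.36 in knockout cells, 1.78-fold lower. Another, 1436879_x_at, was at 5.65, 5.54, 4.25 and 5.52 in rescued and 6.30, 6.35, 6.0 and 6.34 in knockout cells, 2.01-fold lower. In both, the groups did not overlap and line 6D had the lowest value of each group. The dim 1436881_x_at differed by -0.34 on average, also without overlap, and the dim 1436880_at differed by 0.03, lower in 2 lines and higher in 2. Over the 8 arrays, the 4 probe sets that were lower correlated with each other at r = 0.90 to 0.97, and 1436880_at correlated with them at r = 0.01 to 0.15. The points share the same RNA, so these values describe the probe sets and not separate samples.

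Dlk1, a membrane protein of the Notch ligand family that is expressed from the paternal copy, was also lower in rescued cells of all 4 lines. Its probe set, 1449939_s_at, was at 6.49, 6.80, 7.31 and 7.69 in rescued lines 6A, 6B, 6D and 84, and at 7.86, 9.19, 8.17 and 7.97 in the knockout cells. The groups did not overlap, and the narrowest gap was between rescued line 84 and knockout line 6A. The means were 7.07 ± 0.53 in rescued and 8.30 ± 0.61 in knockout cells (SD, n = 4 each), a difference of -1.23 ± 0.89 (SD over lines), or 2.34-fold lower. The differences by line were -1.37, -2.39, -0.86 and -0.28 for Dlk1, against -1.03, -1.32, -1.93 and -0.73 for Afp. In these probe sets line 84 had the smallest difference for both genes, and the largest was in line 6B for Dlk1 and in line 6D for Afp.

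**Figure D1:**
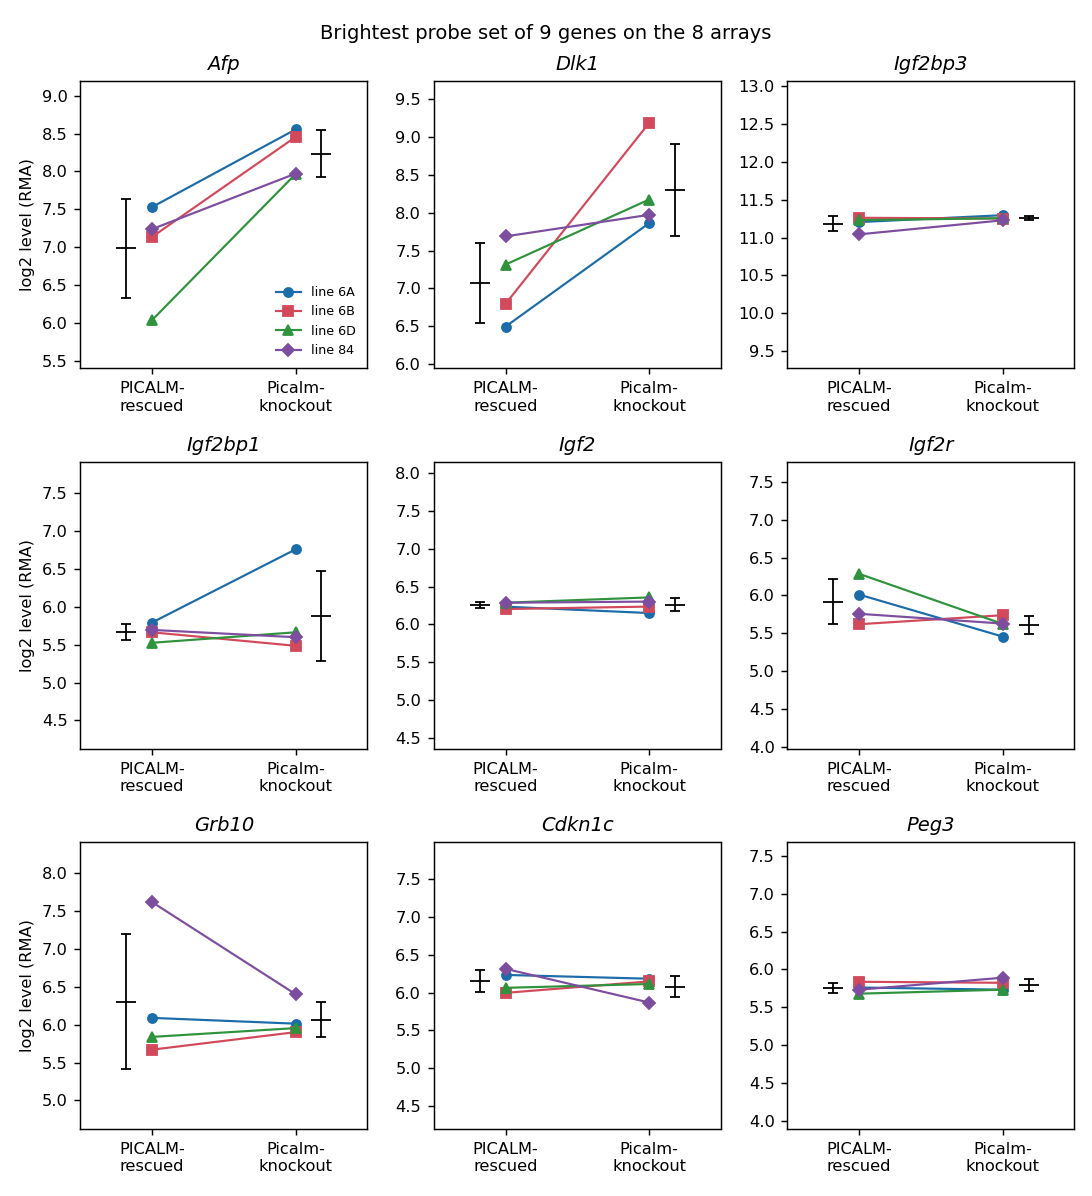
Log2 level (y axis) of the brightest probe set of each of 9 genes on the PICALM-rescued and Picalm-knockout array (x axis) of 4 cell lines, with a line joining the arrays of a cell line and a bar for the mean and SD of each group. Each panel spans the same number of log2 units. Afp and Dlk1 climb toward the knockout side in every line, Igf2bp1 is high in knockout line 6A, and Grb10 is high in rescued line 84.

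Igf2, a fetal growth factor expressed from the paternal copy, did not show this pattern. Its brighter probe set, 1448152_at, was at 6.24, 6.20, 6.29 and 6.29 in rescued and 6.15, 6.24, 6.36 and 6.30 in knockout cells, a mean difference of -0.01. The other, 1415931_at, differed by -0.06. Both probe sets were in the dimmest 40%, so these values cannot tell a low level of Igf2 from none.

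Igf2r encodes the receptor that clears IGF2 from the cell surface to lysosomes, a cargo of clathrin-coated vesicles, and is expressed from the maternal copy in mice. Its brighter probe set, 1424112_at, was at 6.01, 5.62, 6.28 and 5.76 in rescued and 5.46, 5.74, 5.62 and 5.63 in knockout cells. Rescued lines 6A and 6D were the 2 highest arrays, rescued line 84 lay just above the highest knockout array, and rescued line 6B lay among the knockout arrays. The mean difference was 0.31 ± 0.37 (SD over lines). In the second probe set, 1424111_at, rescued lines 6A and 6D were again the 2 highest arrays. Its differences were 0.43, -0.13, 0.66 and -0.16 in lines 6A, 6B, 6D and 84. Line 84 was thus lower in rescued cells here and higher in the brighter probe set.

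Grb10, an adaptor that dampens insulin and IGF signaling, Cdkn1c, an inhibitor of cyclin-dependent kinases, and Peg3, a zinc finger protein, are further imprinted genes. For Grb10, the probe set 1425458_a_at was at 6.09, 5.67, 5.84 and 7.62 in rescued and 6.01, 5.90, 5.96 and 6.40 in knockout cells. Line 84 was the highest in both groups and its rescued array lay 1.22 above its knockout array, while the other lines differed by -0.23 to 0.08. The other Grb10 probe sets gave 0.20 and -0.28 in line 84, so the probe sets disagreed. Cdkn1c was at 6.23, 6.0, 6.06 and 6.31 in rescued and 6.18, 6.15, 6.11 and 5.87 in knockout cells. It differed by 0.45 in line 84 and by -0.15 to 0.05 in the others. The 3 Peg3 probe sets had mean differences of -0.04, -0.04 and -0.01.

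Igf2bp1 and Igf2bp3 encode oncofetal RNA-binding proteins that bind Igf2 mRNA and are not imprinted. Igf2bp3 had 4 bright probe sets, and its brightest, 1422610_s_at, was at 11.20, 11.26, 11.23 and 11.04 in rescued and 11.30, 11.25, 11.26 and 11.23 in knockout cells. The mean differences of the 4 probe sets ran from -0.13 to -0.04. Igf2bp1 stood out on 1 array. Its probe set 1418761_at was at 6.76 in knockout line 6A, and between 5.53 and 5.79 in the rescued arrays and between 5.49 and 5.66 in the other knockout arrays. The second, 1449210_at, was at 6.41 in knockout line 6A, between 4.69 and 4.75 in the rescued arrays and between 4.55 and 4.84 in the other knockout arrays. The differences in line 6A were thus -0.97 and -1.67, and those in the other lines ran from -0.15 to 0.18.

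**Figure D2:**
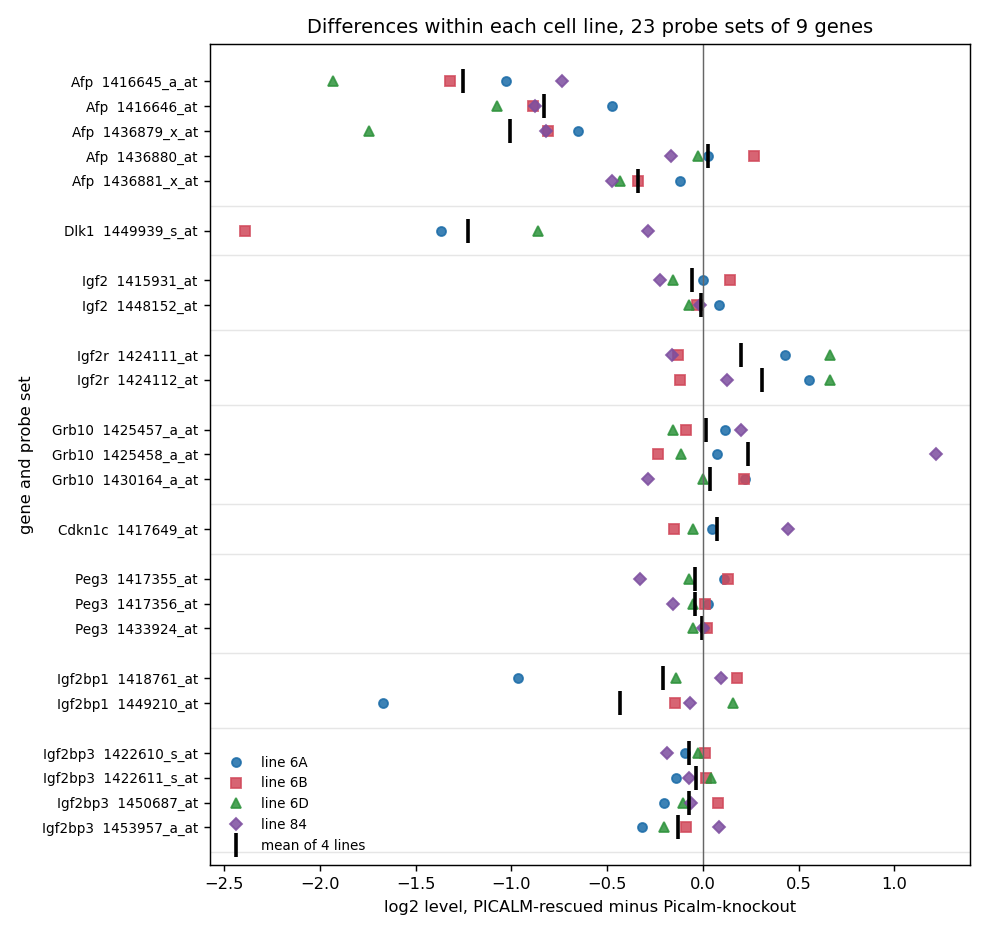
Log2 level in PICALM-rescued cells minus that in Picalm-knockout cells (x axis) for the 23 probe sets of 9 genes (y axis), with a symbol for each of 4 cell lines and a black bar for their mean. All symbols of Dlk1 and of 4 Afp probe sets lie left of 0, the Igf2bp3 symbols lie near 0, and single lines lie apart for Grb10 (84) and Igf2bp1 (6A).

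Counted over probe sets, 5 of the 23 were lower in rescued cells of all 4 lines and 0 were higher, where 11.8% of all probe sets were lower and 12.0% higher in all 4 lines. In the same 5, the groups did not overlap, as in 3.45% of all probe sets. Blocked by line, limma at the false discovery rate of the methods, about 12% (Benjamini-Hochberg adjustment over all probe sets), called 17 of 22626 probe sets lower (0.0751%) and 1 higher (0.00442%). None of the 23 was among them, and the count at an unadjusted p under 0.05 was 5, all lower, where 6.32% of all probe sets were lower at that level. SAM, the test of the methods, was rewritten here and paired by line, a pairing that the methods do not state. It called these 5 lower, as it did 2.08% of all probe sets. All 5 belong to Afp and Dlk1, whose direction was known when they were chosen, so nothing is read from these counts.

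Whether the genes differed between the 4 lines is a separate question that did not enter the choice, and limma's F test across lines was used for it. Of the 23 probe sets, 1 passed at an adjusted p under 0.05, as did 10.8% of all probe sets. This was Igf2bp3 1450687_at (adjusted p = 0.0386 from limma), at 8.81, 8.95, 8.98 and 8.46 in rescued and 9.02, 8.87, 9.08 and 8.52 in knockout cells, with line 84 lowest in both groups. Without line 84 its adjusted p in limma was 0.736, without line 6D 0.0895, and with array weights 0.141. The brightest Igf2bp3 probe set did not pass (adjusted p = 0.549 from limma), nor did the brightest of Afp (0.151) or of Dlk1 (0.582).

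In the network of imprinted growth genes, no measured gene besides Dlk1 was lower in every line. Of 15 genes listed for this network, to which Dlk1, Igf2, Igf2r, Grb10, Cdkn1c and Peg3 belong, 14 were measured. Dlk1 was thus the 1 gene lower in all 4 lines and 0 were higher, where 12.0% of all genes, taken by their brightest probe set, were lower and 13.4% higher. The median difference was 0.03, against 0.01 over all genes, and 11 of the 14 were in the dimmest 40%. Meg3, the noncoding RNA expressed from the maternal copy beside Dlk1, differed by 0.16, -0.32, -0.26 and 0.49 in lines 6A, 6B, 6D and 84. It was therefore lower in 2 of the lines in which Dlk1 was lower and higher in the other 2.

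Among 45 measured of 59 further imprinted genes, 6 were lower and 4 higher in all 4 lines, with a median of 0.02 and 0 called. Of all genes, 12.0% were lower and 13.4% higher in all 4 lines. Sfmbt2, a Polycomb-type repressor expressed from the paternal copy, was at 5.57, 5.71, 6.18 and 7.26 in rescued and 6.40, 6.03, 6.75 and 7.68 in knockout cells. It was 1.45-fold lower (log2 difference -0.53, standard error 0.09) and was not called (adjusted p = 0.228 from limma). Mcts2 (-0.22), Tfpi2 (-0.18) and Slc22a2 (0.20) also kept 1 direction, with smaller differences. Between lines, 13 of the 45 passed (11.8% of all genes did), among them Sfmbt2 (adjusted p = 0.0056 from limma) and Mcts2 (7.67e-04), which were highest in line 84.

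Dnmt3a and Dnmt3b, the DNA methyltransferases that set new methylation, were lower in rescued cells of every line but were not called. The 16 measured among 21 genes that set or keep imprints had a median difference of -0.04, and 0 were called. Of these, 4 lay below the knockout value in each of the 4 lines and 1 above it, against 12.0% and 13.4% of all genes. Dnmt3a was at 8.31, 8.46, 8.44 and 10.03 in rescued and 8.78, 9.04, 8.87 and 10.77 in knockout cells, 1.47-fold lower (standard error 0.06 on the log2 scale, adjusted p = 0.15 from limma). All 5 of its probe sets were lower in all 4 lines. Dnmt3b was at 8.20, 8.16, 8.06 and 10.27 in rescued and 8.50, 8.50, 8.50 and 11.24 in knockout cells, 1.42-fold lower (adjusted p = 0.317 from limma). Dnmt3l, their cofactor without catalytic activity, was higher, at 8.46, 8.21, 8.12 and 7.36 in rescued and 8.03, 7.73, 7.97 and 6.20 in knockout cells, 1.47-fold (adjusted p = 0.332 from limma). Line 84 was highest for both enzymes and lowest for the cofactor, and between lines Dnmt3a (adjusted p = 0.0013), Dnmt3b (0.003) and Dnmt3l (0.0361) passed in limma. Hells, a chromatin remodeler, differed by -0.19, in the same direction in all 4 lines, while Dnmt1, which copies methylation at replication, differed by -0.02 and Uhrf1, its partner, by -0.05. DNA methylation was not measured here.

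In the IGF pathway, the 1 probe set that limma called higher among all 22626 was that of Grb14, an adaptor of the same family as Grb10 that inhibits the insulin receptor. Grb14 was at 6.80, 7.06, 6.87 and 5.62 in rescued and 6.15, 6.25, 6.30 and 4.89 in knockout cells, a difference of 0.64, 0.81, 0.56 and 0.73 in lines 6A, 6B, 6D and 84. The groups overlapped because line 84 was low in both, and the difference within lines was 0.68 with a standard error of 0.05, or 1.61-fold higher (adjusted p = 0.061 from limma). The call was lost without line 6A (adjusted p = 0.254 from limma), 6B (0.471) or 6D (0.199), kept without line 84 (0.0961) and lost without the block (0.969). The alternatives that keep all arrays and the block gave adjusted p-values of 0.0324 to 0.071 in limma. Grb14 lies among the dimmest 40% of probe sets and drops out where these are removed.

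The 33 measured among 34 genes of the pathway had a median of 0.01. Of these, 4 were higher and 0 lower in all 4 lines, against 13.4% and 12.0% of all genes. Besides Grb14, the higher ones were Igf1r, the receptor for IGF1 and IGF2, the adaptor Shc1 and the kinase Akt2. Igf1r was at 8.95, 8.91, 9.09 and 9.57 in rescued and 8.57, 8.80, 8.96 and 9.19 in knockout cells, a difference of 0.25 (adjusted p = 0.328 from limma). A second Igf1r probe set, 1452108_at, was higher in 2 lines and lower in 2. Shc1 differed by 0.18 and Akt2 by 0.07, and neither was called. Igf1 itself differed by -0.36 on average, by -1.29 in line 84 and by -0.21 to 0.17 in the other lines.

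Afp, Igf2bp1 and Igf2bp3 were listed with the RNA-binding protein Lin28a and the genes that the microRNA let-7, which Lin28a blocks, represses in adult cells. Of 17 listed, 10 were measured, with 2 lower and 1 higher in all 4 lines, against 12.0% and 13.4% of all genes. The lower ones were Afp and Mycn, a proto-oncogene of progenitors, and the higher one was Lin28a. Mycn was at 13.60, 12.36, 12.54 and 13.72 in rescued and 14.10, 14.22, 14.17 and 14.20 in knockout cells, 2.17-fold lower and not called (adjusted p = 0.317 from limma). Its other probe sets differed by -0.49 and 0.03. Lin28a was at 8.48, 7.83, 7.99 and 4.91 in rescued and 6.69, 7.68, 7.85 and 4.29 in knockout cells, with most of its difference in line 6A (1.79). A second Lin28a probe set, 1421749_at, differed by 0.11 on average. Sall4 and Gpc3, further oncofetal genes, had mean differences of 0.03 and -0.03.

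Between lines, 2 of the 10 measured genes passed, Hmga2 and Lin28a. Hmga2, a chromatin protein of embryonic cells, was at 5.92, 5.59, 6.29 and 12.58 in rescued lines 6A, 6B, 6D and 84, and at 5.82, 5.84, 5.77 and 12.85 in the knockout cells. Line 84 lay far above the other 3 lines in both states. The differences within lines 6A, 6B, 6D and 84 were 0.105, -0.244, 0.517 and -0.266, with a signed mean of 0.03. All 3 Hmga2 probe sets were highest in line 84 and passed between lines in limma (adjusted p = 2.17e-04 for the brightest). Lin28a, in contrast, was lowest in line 84 (adjusted p = 0.0169 from limma), and its second probe set did not pass (0.642). Hmga2 was named after its values were seen. Each line was measured in 2 arrays that share its cells, so these p-values compare these 4 lines.

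The transcription factors listed as regulators of the Afp or H19 gene had small mean differences. Of 16 measured among 21, 2 were higher and 0 lower in all 4 lines, against 13.4% and 12.0% of all genes. The median was 0.02 and 0 were called. The higher ones were Cebpb (0.22 on average, with 0.68 in line 84 and 0.04 to 0.09 in the other lines) and Nr5a2 (0.15). The Nr5a2 probe sets disagreed, since 2 of its 4 were lower in all 4 lines (-0.08 and -0.09). Zbtb20, a repressor of Afp in adult liver, differed by 0.07. Zhx1, which was also on the list, differed by -0.04. Foxa1, Foxa2, Foxa3 and Hnf4a, factors of the liver that act on Afp, were in the dimmest 40% and differed by -0.02 to 0.09.

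**Figure D3:**
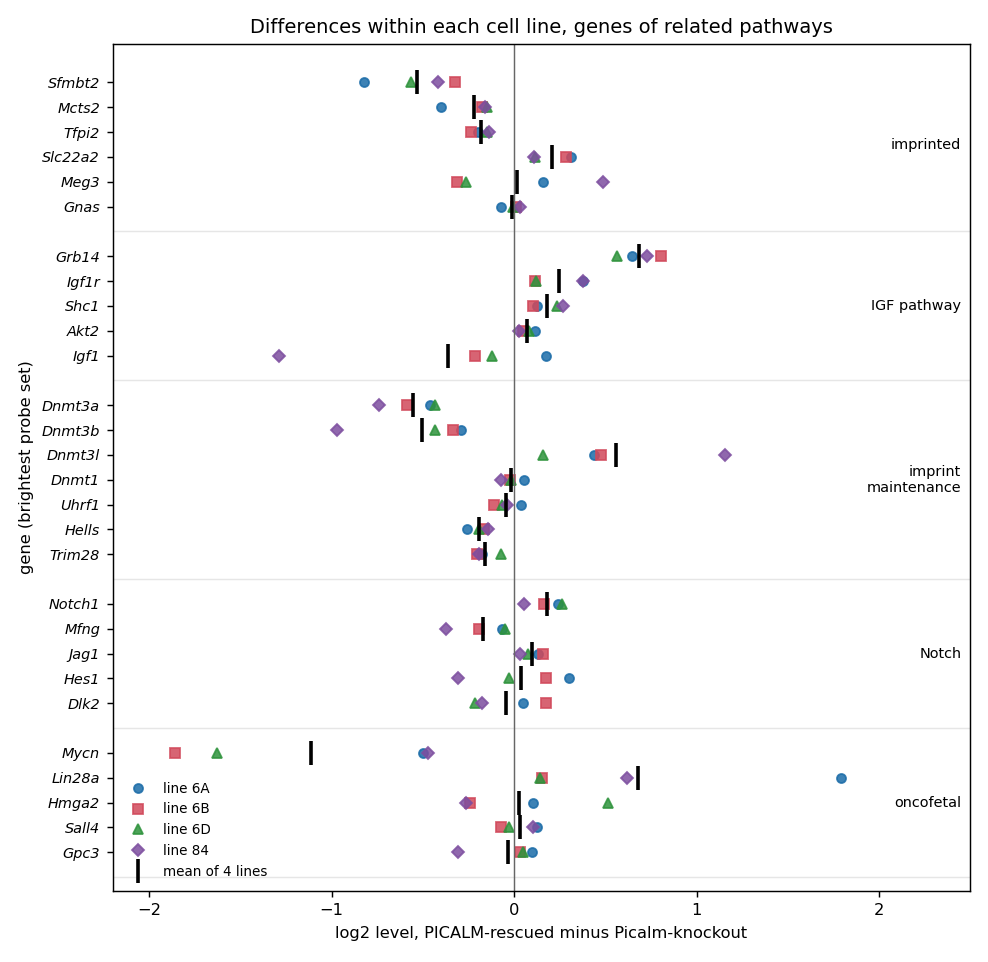
Log2 level in PICALM-rescued cells minus that in Picalm-knockout cells (x axis) for genes related to the oncofetal and imprinted genes (y axis), with a symbol for each of 4 cell lines and a black bar for their mean. Grb14 and Dnmt3l lie right of 0 and Dnmt3a, Dnmt3b, Sfmbt2 and Mycn left of it in every line. Dnmt1, Uhrf1 and Gnas lie near 0, and each gene is shown by its brightest probe set.

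Dlk1 can hinder Notch signaling, and the Notch genes differed little. Besides Dlk1, 25 of the 26 measured genes had mean differences between -0.17 and 0.18. The receptor Notch1 (0.18) and the ligand Jag1 (0.10) were higher in all 4 lines and Mfng, which modifies Notch with sugars, was lower (-0.17). The target genes Hes1, Hey1, Hey2 and Heyl differed by -0.10 to 0.04, and 0 of the 26 were called. Among 20 cyclin-dependent kinase inhibitors and their partners, listed beside Cdkn1c, 3 were lower and 3 higher in all 4 lines, and 0 were called. The shares over all genes were 12.0% lower and 13.4% higher. Cyclin D1, Ccnd1, was 1.64-fold lower (adjusted p = 0.308 from limma) and cyclin D2, Ccnd2, 1.41-fold lower (0.228), with all 3 and 7 of their probe sets lower in every line. Cdk4 differed by -0.18 and cyclin D3, Ccnd3, by 0.18.

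Markers of hepatoblasts and hepatocytes had a median difference close to that of all genes. Of 30 listed, 27 were measured, 25 of them in the dimmest 40%, and the median difference was 0.01, with 2 higher (Ambp and Ttr) and 0 lower in all 4 lines. The mean level of the list ran from 5.39 to 5.50 in rescued and from 5.32 to 5.48 in knockout arrays. Albumin, Alb, the main product of hepatocytes, was at 5.88 to 5.99 in rescued and 5.86 to 6.04 in knockout cells. Ttr, made by hepatoblasts and hepatocytes, was at 7.09 to 7.29 in rescued and 6.99 to 7.25 in knockout cells. The 22 stroma and endothelium markers ran from 5.83 to 5.92 on average in rescued and from 5.78 to 5.91 in knockout arrays, with 1 higher (Acta2, 0.34) and 0 lower in all 4 lines. For comparison, 25 genes of unrelated tissues such as eye and heart had a median difference of 0.03, with 1 higher (Gnat1, 0.11) and 0 lower in all 4 lines. Among these, Scgb1a1, a lung gene, differed by 1.45, -1.81, -1.93 and 3.51 in lines 6A, 6B, 6D and 84, so single lines reached the size of the Afp and Dlk1 differences in a gene with no shared direction.

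Markers of blood cell maturation differed in the same arrays as Afp and Dlk1. Of 17 measured neutrophil markers, 12 were higher and 0 lower in all 4 lines, with a median of 0.92, among them the granule genes Camp (2.33), Ngp (2.01), Lcn2 (1.83) and Cd177 (1.65), none of them called. The mean level of the list ran from 10.62 to 11.59 in rescued and from 9.27 to 10.32 in knockout arrays. Of 16 measured progenitor markers, 5 were lower and 1 higher in all 4 lines, with a median of -0.15, and the mean level ran from 9.92 to 10.37 in rescued and from 10.22 to 10.63 in knockout arrays. The largest differences with 1 direction in all 4 lines, by brightest probe set, were those of Sox4 (-1.32), Cd34 (-1.25), Mycn and Mef2c (-0.64). Most of the list had no shared direction, and the progenitor medians were -0.03, -0.24, -0.06 and -0.18 in lines 6A, 6B, 6D and 84. The brightest probe set of Sox4 was not called (adjusted p = 0.15 from limma), while 1419155_a_at and 1419156_at were (0.0305 each). The part of these shifts in the Afp and Dlk1 differences was not tested. By line, the median neutrophil difference was 0.66, 0.36, 0.34 and 0.67 in lines 6A, 6B, 6D and 84. The median of the mean differences was 0.41 without line 84 and 0.54 with array weights. Of 15 erythroid markers, 3 were higher (Gata1, Add2 and Sptb) and 1 lower (Tfrc) in all 4 lines, with a median of 0.08.

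**Figure D4:**
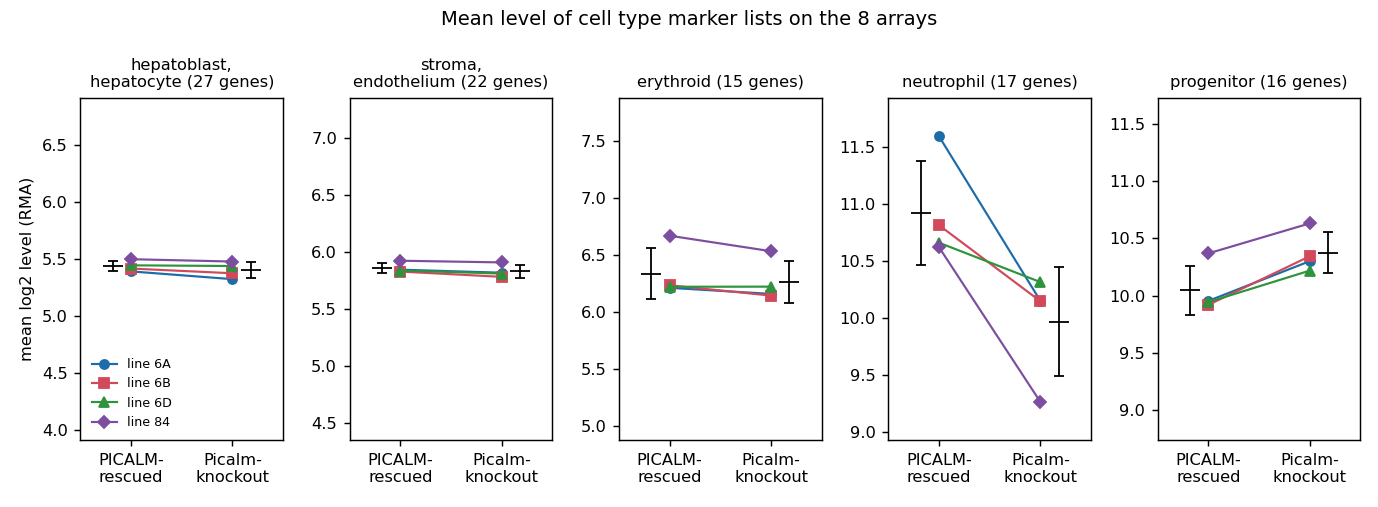
Mean log2 level (y axis) of 5 lists of cell type markers on the PICALM-rescued and Picalm-knockout array (x axis) of 4 cell lines, with a line joining the arrays of a cell line and a bar for the mean and SD of each group. In every line the neutrophil list climbs and the progenitor list drops toward the rescued side, and the hepatocyte and stroma lists are nearly level.

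Over the 8 arrays, the genes with the most similar pattern to the brightest Afp probe set, outside the dimmest 40%, were Ezh1 (Pearson r = 0.94), Coq8a (0.92) and Ggps1 (0.92), whose mean differences ran from -0.21 to -0.08. For Dlk1 they were Zfp472 (r = 0.96), Mcm3 (0.95) and Slf1 (0.94), and for Igf2bp3 they were Bloc1s6 (r = 0.98), Mrpl39 (0.98) and Rasal3 (0.98). None of these was a member of the gene lists. Afp and Dlk1 themselves correlated at r = 0.58. The arrays share 4 lines and 2 states, so these coefficients describe the arrays only.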

How the data were processed

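Total RNA of 8 cell cultures was hybridized to Affymetrix mouse genome arrays, whose version is named differently in the labels and in the methods. The deposited log2 values, from RMA run by the authors, were used as given. The table held 22690 probe sets, of which 64 were controls and were removed. GEO's platform annotation gave 1 gene symbol to 20380 of the 22626 tested, several to 691 and none to 1555. Of the symbols, 20351 were looked up by gene ID and 0 changed. Arrays give no molecule counts, so their number limits the precision.

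Rescued and knockout cells were compared in limma 3.58.1 (R 4.3.3), two-sided, with the cell line as a block, and called at 12.3%. The lines pair the arrays: deviations from group means correlated at 0.62 to 0.81 within a line. The fit was tested on simulated data. Summaries used pandas 2.3.3 in Python 3.11.15. For each of 15 lists, the probe set with the highest mean stood for a gene. Promoters came from RefSeq (GRCm38.p6).

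The members and lists were chosen with earlier results of these data known. Named were all members, list genes that were called, up to 4 list genes with the largest difference in 1 direction, and the 3 most similar genes. A further 21 genes, Hmga2 among them, other probe sets of Sox4, and the motifs were chosen after their values were seen. Alternatives were quantile normalization, centring, SAM, the methods' t-test, no block, array weights, a variance trend, stricter thresholds, a filter on dim probe sets, and leaving out each line or array.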

Additional observations from a re-analysis of the deposited data

Results flagged for a closer look

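Of 164 groups of 4 arrays, from 82 probe sets of the genes named here, 29 had 1 array far from the other 3 (its gap to the nearest of them over the range of the 4 was above Dixon's critical value). Chance flags about 1 group in 20 where groups are independent. These groups share arrays and genes, and some genes were named after their values were seen, so that rate is no baseline here. The array was one of line 84 in 20 of the 29.

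Among the oncofetal and imprinted genes, Igf2bp1 was high in knockout line 6A in both probe sets, with gap over range at 0.86 and 0.847. Line 6D was low in the Afp probe set 1436879_x_at in both rescued (0.91) and knockout cells (0.852). Igf2bp3 1453957_a_at was low in rescued line 84 (0.924), at 8.43 against 8.67 to 8.69. The dim Igf2 1415931_at was low in rescued line 6B, at 4.38 against 4.42 in the other 3, which is a ratio of 1.0 with a gap smaller than the spread of the knockout arrays.

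In line 84, Hmga2 had ratios of 0.90 in rescued and 0.991 in knockout cells, Dnmt3a 0.917 and 0.868, Dnmt3b 0.937 and 1.0, Cdk4 0.852 and 0.955, Gata1 0.94 and 0.895, and Mcts2 0.837 and 0.947. Rescued line 84 lay apart for Ccnd1 (0.844) and Sox4 (0.835). Knockout line 84 lay apart for Grb14 (0.893), Dnmt3l (0.836), Ccnd2 (0.868), Cebpb (0.92) and Mfng (0.939). In other lines, the arrays apart were rescued line 6A for Akt2 (0.895) and Ngp (0.852), knockout line 6A for Nr5a2 (0.873) and knockout line 6B for Add2 (0.876).

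The rescued minus knockout difference of Scgb1a1 was 5.44 higher in line 84 than in line 6D, with opposite signs in these lines. With 1 pair of arrays per line, this difference between lines was not tested.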

How the results depend on the processing

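The Afp and Dlk1 differences kept their sign, from -1.43 to -1.03 for Afp and -1.54 to -0.84 for Dlk1 under the alternatives. They moved by less than 1 SD over lines. Leaving out 1 line or 1 array could not have moved them by 1 SD. The fit without the block and the filter on dim probe sets left them unchanged, so little is read from the size of these moves. Under the same limit, the differences of the other 21 probe sets of the group also moved by less than 1 SD (341 of 341 values). Of 252 list medians, 22 moved by more than 1 SD, 10 of them for the neutrophil markers.

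Counts of called probe sets depended on the setting. With the block, 17 were lower and 1 higher. Without the replicate block, 0 and 0 passed (491 and 583 at an unadjusted p under 0.05), against 1429 and 1396 with it. Array weights gave 92 and 25, a variance trend with robust settings 81 and 19, a threshold of 5% 4 and 0, and removal of the dimmest 40% of probe sets 0 higher. SAM as rewritten here, paired by line, called 470 and 122. The methods' t-test at an unadjusted p gave 1217 and 994 paired, and 562 and 617 unpaired, the unpaired form being chosen after seeing the data. With Benjamini-Hochberg adjustment both forms gave 0 and 0. Leaving out 1 line or 1 array gave 0 to 42 lower and 0 to 8 higher: 0 and 0 without line 6A, 6B or 6D, 42 and 8 without line 84. A line with 1 array left adds nothing to the blocked contrast, so both give the same counts.

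Probe sets called between lines numbered 2440 with all arrays, 1094 with array weights, 535 at a threshold of 1%, and 58 to 1491 without 1 line, the lowest without line 84. The causes were not tested. Signals in the dimmest 40% limit what can be said of Igf2, Igf2r, Grb10, Cdkn1c, Peg3 and Igf2bp1.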
